A study of Mus musculus with 6 samples.

Results

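The genes described here are 10 members of the Krüppel-like factor (KLF) family of transcription factors, Klf2, Klf4, Klf5, Klf6, Klf7, Klf9, Klf10, Klf11, Klf13 and Klf15, measured in injured mouse spinal cord with and without rotarod training. They were taken by gene symbol from a table of 54532 genes, in which 17 symbols belong to the KLF family. The choice of these 10 was made with the difference between trained and untrained cord already known, so their values in that comparison are a description and support nothing beyond it. All 10 were found, and all 10 passed the filter on low counts that left 16909 genes for testing.

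The mice were C57BL/6J, all had a spinal cord injury (SCI), and total RNA was taken from their spinal cord. Of the 6 libraries 3 are from animals given rotarod training (walking on a turning rod) and 3 from untrained ones, both labelled day 28 after training. Both groups carry the injury, no uninjured cord is among the samples, and the labels give no age, sex, injury level or injury method. They do not say whether each library is a separate mouse, so the errors below are the spread between these libraries, which may be technical. Levels are in CPM, the read count scaled to the size of its library (15814104 to 26092014 counts), where 3 counts, taken as the limit of detection, are worth 0.116 to 0.192 CPM. Neuron markers summed to 4529 to 5441 CPM and oligodendrocyte markers to 32766 to 41696 CPM over the 6 libraries, and no marker of either list was at 0. In trained replicate 1 the Schwann cell and fibroblast markers summed to 345 and 157 CPM, below the lowest of the other libraries (943 and 351 CPM).

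KLF proteins bind GC-rich and CACCC-type DNA through zinc fingers of the C2H2 type at their carboxyl end, and their amino ends, which differ between members, recruit activators or repressors. In blood vessels Klf2 and Klf4 are induced by laminar flow through the kinase ERK5 and MEF2 factors and keep the endothelium quiescent. In neurons the family is known for its control of axon growth, with Klf4 and Klf9 described as suppressors and Klf6 and Klf7 as promoters. Klf9 and Klf15 are glucocorticoid-responsive genes, and Klf10 and Klf11 were first known as early genes of TGF-beta signalling.

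In the deposited table, on GRCm38 coordinates, Klf2 (ENSMUSG00000055148) lies on chromosome 8 at bases 72319033 to 72321656 and Klf4 (ENSMUSG00000003032) on chromosome 4 at 55527143 to 55532466. Klf6 (ENSMUSG00000000078) lies on chromosome 13 at 5861482 to 5870394 and Klf7 (ENSMUSG00000025959) on chromosome 1 at 64029447 to 64122282. Klf9 (ENSMUSG00000033863) spans 23141226 to 23166911 of chromosome 19, and Klf15 (ENSMUSG00000030087) 90462576 to 90475238 of chromosome 6. Klf5 (ENSMUSG00000005148) is at 99298691 to 99315036 of chromosome 14, Klf10 (ENSMUSG00000037465) at 38291463 to 38300706 of chromosome 15, Klf11 (ENSMUSG00000020653) at 24651274 to 24662789 of chromosome 12 and Klf13 (ENSMUSG00000052040) at 63886351 to 63938915 of chromosome 7. All are protein-coding genes. Klf7, Klf9 and Klf13 overlap 3, 1 and 2 other genes of the table, which together held 7, 1 and 56 counts over the 6 libraries. The other members overlap none.

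Promoter windows from RefSeq (GRCm38.p6, 250 bases before the start of transcription to 50 after it) were matched for 8 of the 10, all but Klf5 and Klf10. The 250 bases before the start are shown, 5′ to 3′ on the gene's strand, for the genes with the lowest trained level relative to untrained (Klf2 and Klf4) and for the glucocorticoid-responsive ones (Klf9 and Klf15). They are chr8:72318812-72319061 (plus strand), chr4:55532476-55532725 (minus), chr19:23140976-23141225 (plus) and chr6:90462326-90462575 (plus). Capitals mark a MEF2 site and a CRE half-site (TGACG) in Klf2, an E-box (CACGTG) and a CRE half-site in Klf4, an AP-1 site (TGANTCA) and a CRE half-site in Klf9, and E-boxes and CRE half-sites in Klf15, a CRE half-site on the other strand reading CGTCA. The RefSeq start of Klf2 lies 29 bases inside the gene model of the table. Those of Klf6, Klf7 and Klf11 lie inside theirs too, and that of Klf4 lies just outside. For Klf7 all 250 bases before the start (chr1:64121390-64121639, minus) fall within its gene model.
Klf2: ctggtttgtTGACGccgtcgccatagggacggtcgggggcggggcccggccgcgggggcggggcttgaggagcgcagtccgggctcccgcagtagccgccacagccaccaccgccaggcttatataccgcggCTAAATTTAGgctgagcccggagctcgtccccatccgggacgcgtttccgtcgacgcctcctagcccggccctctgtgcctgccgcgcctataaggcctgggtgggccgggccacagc
Klf4: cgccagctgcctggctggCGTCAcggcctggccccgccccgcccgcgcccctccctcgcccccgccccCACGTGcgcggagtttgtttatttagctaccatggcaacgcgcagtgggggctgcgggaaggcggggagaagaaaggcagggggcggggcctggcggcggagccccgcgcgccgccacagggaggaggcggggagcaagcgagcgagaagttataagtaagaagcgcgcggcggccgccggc
Klf9: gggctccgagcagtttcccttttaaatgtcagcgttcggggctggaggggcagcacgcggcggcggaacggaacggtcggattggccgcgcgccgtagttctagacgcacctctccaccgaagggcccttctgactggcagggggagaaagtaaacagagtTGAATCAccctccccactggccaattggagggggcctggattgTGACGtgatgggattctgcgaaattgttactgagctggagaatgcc
Klf15: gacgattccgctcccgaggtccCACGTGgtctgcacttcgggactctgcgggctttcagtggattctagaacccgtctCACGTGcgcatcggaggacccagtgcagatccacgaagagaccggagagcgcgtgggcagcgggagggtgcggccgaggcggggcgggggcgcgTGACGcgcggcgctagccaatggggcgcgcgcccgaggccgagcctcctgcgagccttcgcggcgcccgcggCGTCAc

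Motifs were searched on both strands of the windows with their 50 bases past the start, and a match is only a run of letters. The MEF2 site of Klf2, CTAAATTTAG, begins 118 bases before the start. It was the one MEF2 match among the 8 members, and 3.19% of 32851 promoter windows hold such a site. CRE half-sites stood in 5 of 8 members (Klf2, Klf4, Klf9, Klf13 and Klf15), against 20.8% of all windows. E-boxes stood in 4 (Klf4, Klf6, Klf11 and Klf15), against 7.15%. Klf15 had 3, the last of which crosses the start and is therefore not in capitals above. GC boxes (GGGCGG) stood in 7 of 8, all but Klf9, against 35.7%, and CACCC boxes (CCACCC) in 3 (Klf2, Klf7 and Klf13), against 31.5%. The windows are richer in G and C than most, at 59.2% to 76.8% in the 250 bases before the start against a median of 52.4%. The glucocorticoid response element, an inverted repeat, and its half-site AGAACA, which lies within it, were in 0 of the 8 windows, with 0.00913% and 19% of all windows holding them. The full CRE (TGACGTCA), which contains the CRE half-site, was in 0 of the 8 and in 1.79% of all windows.

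Klf2 and Klf4, the endothelial pair, had the lowest trained levels relative to untrained cord. Klf2 was at 13.8, 22.4 and 24.1 CPM in trained libraries (replicates 1, 2 and 3, the order used throughout) and at 75.5, 42.3 and 76.3 CPM in the untrained ones. Every trained library lay below every untrained one, and untrained replicate 2 lay well below the other untrained libraries. The means were 20.1 ± 5.54 and 64.7 ± 19.4 CPM (SD, n = 3), a 3.26-fold lower level in trained cord (log2 fold change -1.70 ± 0.36 SE in edgeR). Klf4, which is also a reprogramming factor and a regulator of epithelial and myeloid differentiation, was at 8.60, 10.8 and 10.5 CPM in the trained and 34.4, 23.4 and 22.7 CPM in the untrained libraries. Here too the groups did not overlap, and untrained replicate 1 was the highest library. The means were 9.96 ± 1.20 and 26.8 ± 6.51 CPM, 2.71-fold lower in trained cord (log2 fold change -1.44 ± 0.17 SE).

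Klf6 and Klf7 are the members described as promoters of axon growth. Klf6, an early-response gene of injured tissue, was at 29.4, 35.8 and 35.5 CPM in the trained and 50.5, 49.3 and 44.0 CPM in the untrained libraries. The groups did not overlap, and the level was 1.43-fold lower in trained cord (log2 fold change -0.52 ± 0.10 SE). Klf7 was at 20.1, 18.1 and 17.1 CPM in the trained and 20.6, 19.7 and 16.3 CPM in the untrained libraries. Its groups overlapped, with a log2 fold change of -0.034 ± 0.12 SE. That direction turned without trained replicate 3 (0.037) and without untrained replicate 1 (0.043).

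Among the glucocorticoid-responsive members, Klf9 was at 78.3, 77.6 and 69.9 CPM in the trained and 97.2, 93.1 and 94.3 CPM in the untrained libraries. The untrained libraries lay close together (coefficient of variation 2.23%, against 30.0% for Klf2), and every trained library lay below them. The level was 1.26-fold lower in trained cord (log2 fold change -0.33 ± 0.071 SE). Klf15, a regulator of amino acid and lipid use, was at 21.6, 26.2 and 23.3 CPM in the trained and 29.7, 28.1 and 28.2 CPM in the untrained libraries. Its groups did not overlap either, at a 1.21-fold lower level in trained cord (log2 fold change -0.27 ± 0.098 SE). Klf13, a close relative of Klf9 that works with the Sin3 repressor complex, was at 93.1, 94.6 and 83.9 CPM in the trained and 107, 110 and 100.1 CPM in the untrained libraries. It was 1.17-fold lower (log2 fold change -0.22 ± 0.074 SE), again with no overlap.

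The TGF-beta early genes Klf10 and Klf11 had higher means in trained cord and groups that overlapped. Klf10 was at 9.02, 14.1 and 10.8 CPM in the trained and 10.1, 10.6 and 9.07 CPM in the untrained libraries. Trained replicate 2 was the highest of the 6 and trained replicate 1 the lowest. The log2 fold change of 0.18 ± 0.17 SE was -0.0056 without trained replicate 2. Klf11 was at 8.36, 10.01 and 8.19 CPM in the trained and 8.36, 7.75 and 7.48 CPM in the untrained libraries (log2 fold change 0.17 ± 0.15 SE, and 0.075 without trained replicate 2).

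Klf5, an activator best known from epithelia and smooth muscle, had the widest spread of the 10 in trained cord relative to its mean (coefficient of variation 65.9%). The trained libraries held 30, 110 and 106 reads of it (1.16, 6.79 and 6.58 CPM) and the untrained ones 61, 61 and 47 (3.33, 3.66 and 3.003 CPM). Trained replicate 1 lay below every untrained library and the other trained libraries above every one. Schwann cell markers, summed, were at 345, 1465 and 943 CPM in the trained and 1206, 1355 and 949 CPM in the untrained libraries. Fibroblast markers were at 157, 606 and 671 CPM and at 589, 360 and 351 CPM. Both marker sums were lowest in trained replicate 1, as Klf5 was, and their part in the Klf5 values was not tested. The log2 fold change of Klf5 was 0.51 ± 0.66 SE with all libraries and 1.001 without trained replicate 1, where it did not pass either (edgeR adjusted p = 0.171), and 0.17 and 0.21 without trained replicates 2 and 3.

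**Figure D1:**
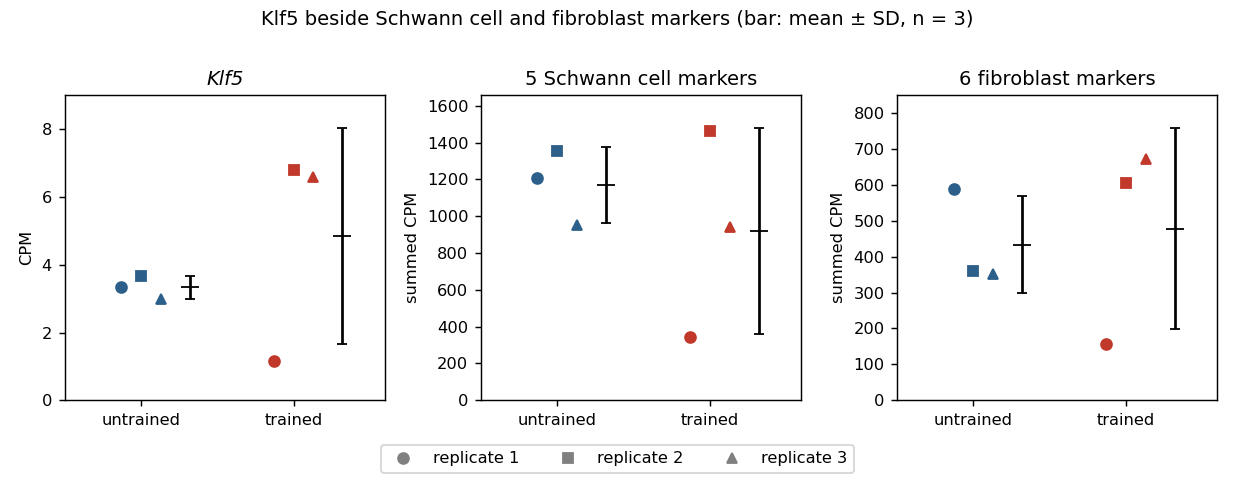
CPM of Klf5 (left) and summed CPM of 5 Schwann cell markers (middle) and 6 fibroblast markers (right) in each untrained (blue) and trained (red) library, with mean ± SD (n = 3) in black. Trained replicate 1 (circle) is the lowest of the 6 libraries in each panel, at 1.16, 345 and 157 CPM.

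**Figure D2:**
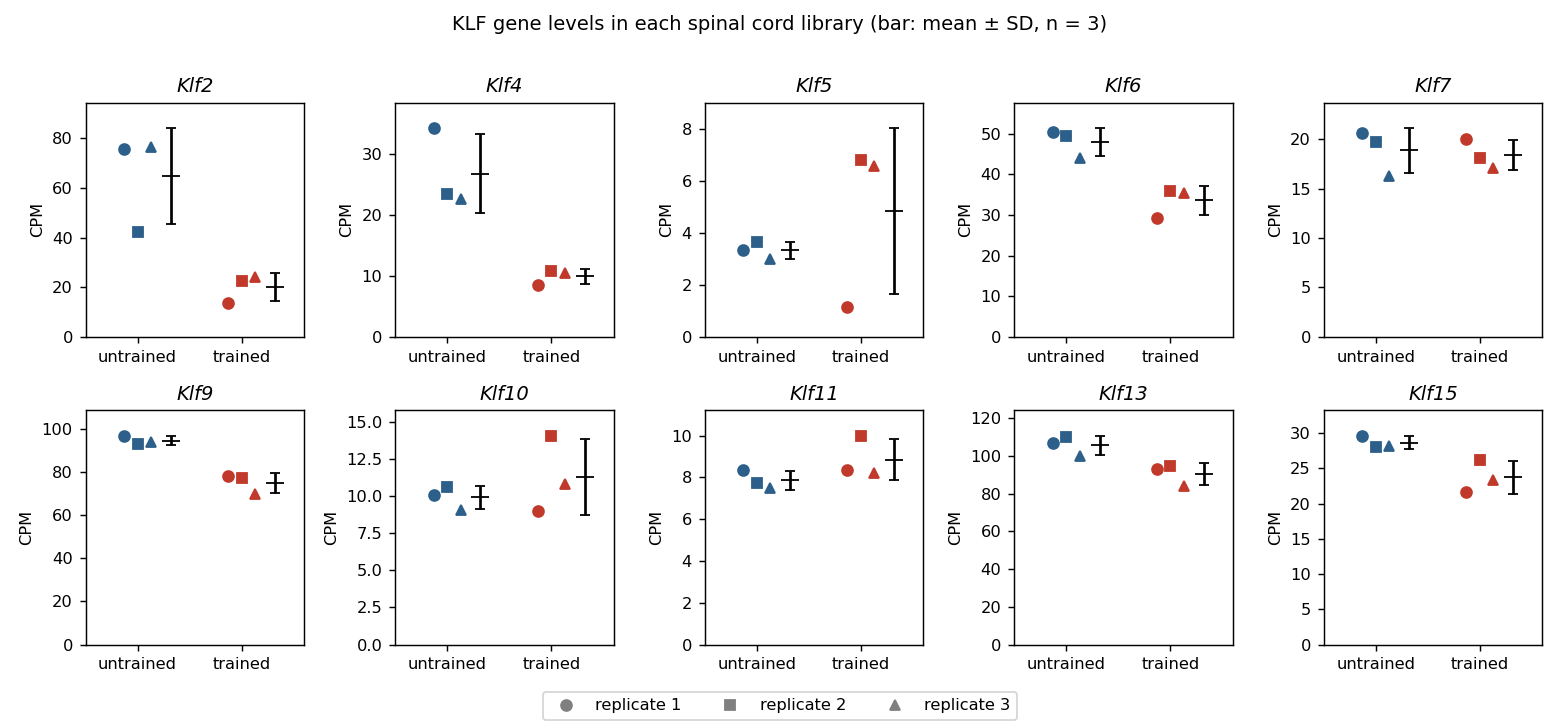
CPM of each of the 10 KLF genes (vertical axis, from 0) in untrained (blue) and trained (red) libraries, with the replicate number as the marker shape and the mean ± SD (n = 3) in black. In Klf2, Klf4, Klf6, Klf9, Klf13 and Klf15 every trained library lies below every untrained one, while the 3 trained Klf5 values (1.16, 6.79 and 6.58 CPM) lie on both sides of the untrained ones.

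Counted over the 10, trained libraries lay wholly below untrained ones in 6 and wholly above in 0, and the groups overlapped in 4 (Klf5, Klf7, Klf10 and Klf11). Over all genes tested, 8.69% lay wholly below and 8.13% wholly above, and 10% had an unadjusted p under 0.05 in edgeR, the share against which such counts in the lists below stand. In edgeR's quasi-likelihood test with adjustment over all genes, 1 of the 10 passed an adjusted p of 0.05, Klf4, which fell, where 0.0591% of all genes tested passed (0.0532% fell and 0.00591% rose). That call ended without trained replicate 2 (edgeR adjusted p = 0.119). DESeq2 called 4 of the 10, all lower in trained cord (Klf2, Klf4, Klf6 and Klf9), where it called 0.478% of all genes (0.284% lower and 0.195% higher). In 2 of the 10, Klf2 and Klf4, the trained mean was lower by at least 2-fold, as in 0.603% of all genes. Because the members were chosen on this comparison, nothing is read from these counts. The median log2 fold change of the 10 was -0.25, and that of all genes tested was -0.0080.

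**Figure D3:**
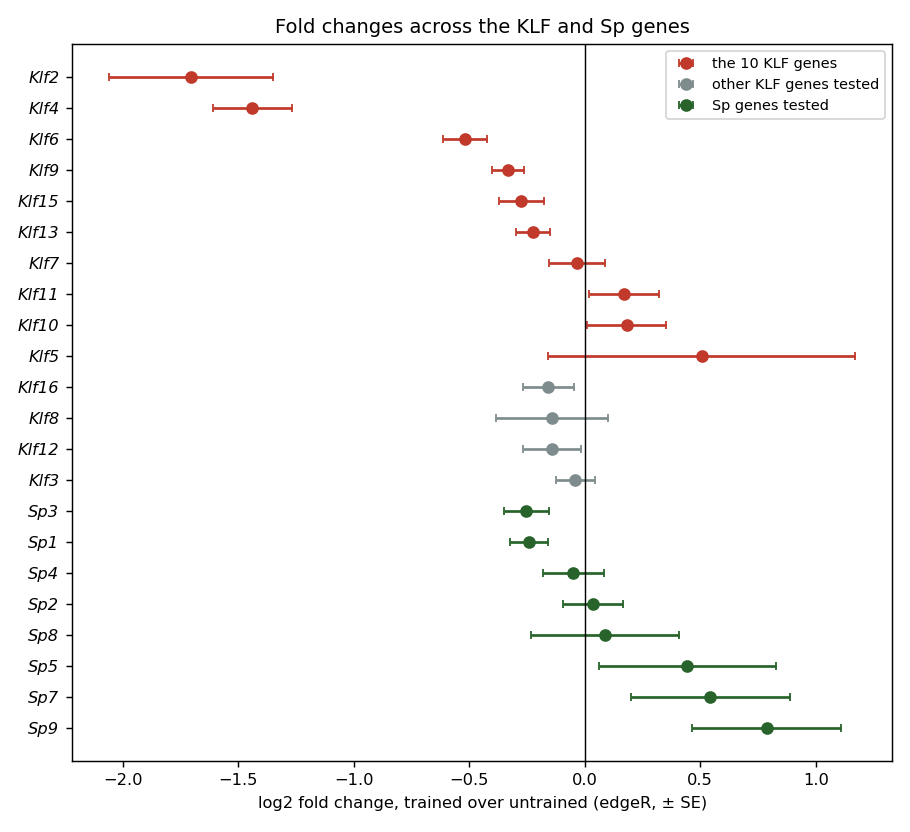
Log2 fold change, trained over untrained (horizontal axis, edgeR estimate ± SE), of the 10 KLF genes (red), the other KLF genes tested (grey) and the Sp genes tested (green). Klf2 at -1.70 and Klf4 at -1.44 lie apart from the others, which run from -0.52 (Klf6) to 0.79 (Sp9).

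In the rest of the family no gene passed the test. Of the 7 other KLF genes 4 could be tested (Klf3, Klf8, Klf12 and Klf16), and 0 passed edgeR's test, with 0 at an unadjusted p under 0.05 and 0 in DESeq2. Klf16, a Sin3-binding repressor, was at 17.9 ± 0.238 CPM with training and 20.0 ± 2.40 CPM without, and Klf12, which represses through CtBP, at 17.7 ± 2.68 and 19.5 ± 1.605 CPM. Klf17 had 0 counts in every library and Klf14 0 to 4 counts. Of the 8 Sp genes tested, the nearest relatives of the KLF genes, 0 passed in edgeR and 0 in DESeq2, with 2 lower and 1 higher at an unadjusted p under 0.05. Sp1 was at 35.5 ± 2.46 CPM with training and 41.8 ± 0.839 CPM without (log2 fold change -0.24 ± 0.081 SE, edgeR adjusted p = 0.360), and Sp3 at 35.3 ± 4.02 and 41.9 ± 3.002 CPM. In the table's own class of C2H2 zinc finger genes 471 were tested, with a median log2 fold change of 0.025. Ordered from the lowest log2 fold change, Klf2 stood at place 2 of these 471 and Klf4 at place 4, and over all 16909 genes they stood at 17 and 32.

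Summed over the 17 KLF genes of the table, the level was 364.6 ± 19.3 CPM with training and 481 ± 22.5 CPM without. Klf2 held 38.3% of that difference and Klf4 14.5%, together 52.7%. Klf2 made up 3.93%, 5.78% and 6.77% of the KLF reads in the trained libraries and 14.9%, 9.13% and 16.1% in the untrained ones. Klf4 made up 2.73% ± 0.253 in trained and 5.55% ± 1.08 in untrained cord. The share of Klf9, 20.7% ± 1.44 and 19.7% ± 0.472, overlapped between the groups.

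Between genes, levels were compared per kilobase of gene model. In untrained cord Klf2 came first, at 35.0 ± 10.5 CPM per kb, followed by Klf9 at 29.1 ± 0.648, and the ranges of these 2 overlapped. Klf13 was next at 14.04 ± 0.690, apart from both its neighbours. Klf6 at 10.9 ± 0.783, Klf15 at 10.3 ± 0.3197 and Klf4 at 8.80 ± 2.14 CPM per kb each overlapped the next. For Klf4 the next was Klf16, at 7.48 ± 0.897 CPM per kb. Klf10 at 2.37 ± 0.189 and Klf7 at 2.32 ± 0.279 overlapped too, and below them Klf11 at 1.81 ± 0.104 and Klf5 at 0.641 ± 0.0636 stood apart. In trained cord the order at the top differed. Klf9 came first at 23.1 ± 1.41 CPM per kb, apart from the rest, and Klf13 (12.02 ± 0.770), Klf2 (10.9 ± 2.998), Klf15 (8.50 ± 0.841) and Klf6 (7.64 ± 0.830) each overlapped the next. For Klf6 the next was Klf16, at 6.71 ± 0.0891 CPM per kb, which lay apart from Klf4 below it. Klf4 stood at 3.27 ± 0.392 and overlapped Klf10 at 2.70 ± 0.614. The gene model of Klf9 is 3263 bases in the table and 4815 in the GENCODE M21 annotation, and with the latter, a setting chosen after seeing the data, it was at 19.7 ± 0.439 CPM per kb in untrained cord and no longer overlapped Klf2. In trained cord it was then at 15.6 ± 0.958 and still first. The other 9 have the same length in both.

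**Figure D4:**
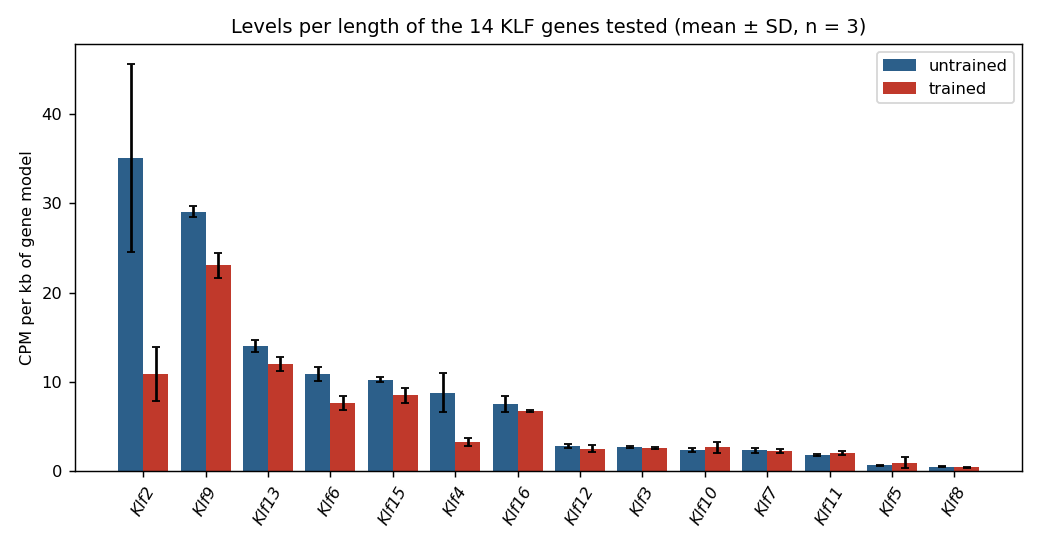
CPM per kilobase of gene model (vertical axis, from 0) of the 14 KLF genes tested, ordered by their untrained level, in untrained (blue) and trained (red) cord, as mean ± SD (n = 3). Klf2 is first in untrained cord at 35.0 and lies between Klf13 and Klf15 in trained cord at 10.9 CPM per kb.

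Klf2 and Klf4 are abundant in endothelial cells, so the endothelial markers are given beside them. Their 12 genes, none of them at 0 and Flt1 (a VEGF receptor) and Cldn5 (a tight junction protein) the highest, summed to 488, 603 and 547 CPM in the trained and 747, 607 and 587 CPM in the untrained libraries. All 12 had log2 fold changes below 0 (median -0.18), 0 passed edgeR's test and 3 had an unadjusted p under 0.05. In a bulk sample fewer cells of a type and less RNA per cell cannot be told apart. As a share of that sum, Klf2 was at 2.82%, 3.71% and 4.41% in the trained and 10.1%, 6.97% and 13.0% in the untrained libraries. Klf4 was at 1.76%, 1.79% and 1.92% against 4.60%, 3.86% and 3.87%. For both genes the groups stayed apart on this scale, by 2.75-fold between the means for Klf2 and 2.25-fold for Klf4. Both were chosen on this difference, and the part of the endothelial share in it was not tested. Klf6 also stayed apart, at 6.15% ± 0.298 and 7.46% ± 0.687. Klf9, at 13.9% ± 1.85 and 14.8% ± 1.59, Klf13 and Klf15 overlapped. Klf10 and Klf11, which overlapped in CPM, lay wholly higher in trained cord on this scale, at 2.05% ± 0.254 and 1.55% ± 0.204 for Klf10 and 1.62% ± 0.112 and 1.22% ± 0.0901 for Klf11. The endothelial sum itself had a lower mean in trained cord (546 against 647 CPM), which by itself makes shares of it larger there. How many of all genes lie apart on this scale was not counted. With the endothelial marker mean as a covariate, an alternative chosen after seeing the data, the log2 fold change of Klf4 was -1.11 ± 0.15 SE (edgeR adjusted p = 0.0083). That of Klf2 was -1.42 ± 0.39 SE (edgeR adjusted p = 0.626). This fit cannot separate fewer endothelial cells from less RNA per cell, so it is no test of the endothelial share. Microglia and macrophage markers, another source of Klf2, Klf4 and Klf6, summed to 570 to 768 CPM in trained and 695 to 828 CPM in untrained libraries, with 8 of 8 below 0, 0 past the test and none at 0. Their part in the KLF values was not tested. Neutrophil markers, which went the other way, summed to 30.6 to 64.3 CPM and 14.6 to 22.1 CPM (6 of 6 above 0 on the log2 scale, median log2 fold change 1.46, 0 past the test and 6 at an unadjusted p under 0.05), and their part was not tested either.

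**Figure D5:**
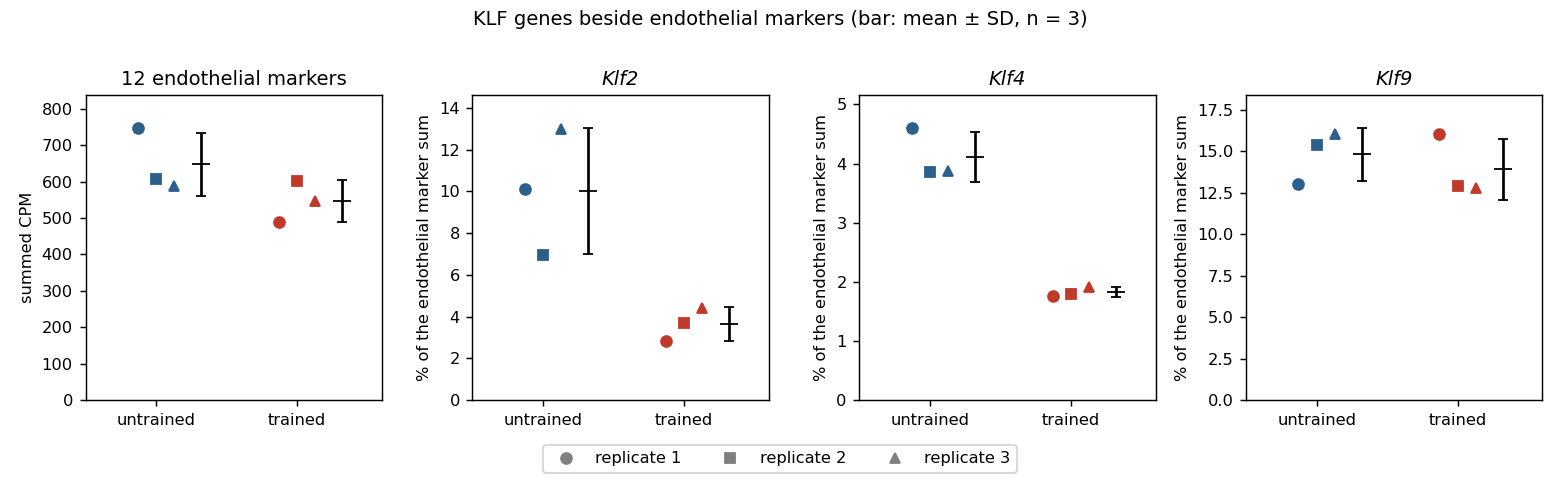
Summed CPM of 12 endothelial markers (left) and the CPM of Klf2, Klf4 and Klf9 as a percentage of that sum, in each untrained (blue) and trained (red) library, with mean ± SD (n = 3) in black. Klf2 and Klf4 remain apart between the groups (Klf4 at 1.76% to 1.92% against 3.86% to 4.60%), while Klf9 overlaps.

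Upstream of Klf2 and Klf4, 7 genes of the ERK5 and MEF2 pathway were tested, and 0 passed in edgeR or in DESeq2, with 1 lower at an unadjusted p under 0.05. Mef2a, of the MEF2 factors, was at 77.0 ± 7.52 CPM with training and 88.7 ± 7.67 CPM without. Map3k3, which like Map3k2 encodes a kinase at the top of the cascade, was at 21.2 ± 2.72 and 24.6 ± 0.879 CPM. Mapk7, which encodes ERK5 itself, had a log2 fold change of 0.15 ± 0.10 SE. Of 7 tested genes known to respond to KLF factors in endothelium, 0 passed in edgeR or DESeq2, with 3 lower at an unadjusted p under 0.05. S1pr1, a sphingosine phosphate receptor, was at 111, 107 and 113 CPM in the trained and 135, 131 and 126 CPM in the untrained libraries, without overlap (log2 fold change -0.24 ± 0.067 SE, edgeR adjusted p = 0.268). Edn1, the endothelin gene, which KLF factors repress, was also at a lower mean, 2.36 ± 0.0937 against 4.09 ± 0.502 CPM (log2 fold change -0.79 ± 0.22 SE, edgeR adjusted p = 0.268). Nos3, endothelial nitric oxide synthase and a textbook target of Klf2, had a log2 fold change of -0.021.

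A list of 14 tested genes held cofactors through which KLF proteins act and also Wwp1 and Fbxw7, genes of ubiquitin ligases. Of these 14, 0 passed in edgeR or DESeq2, and 1 was lower at an unadjusted p under 0.05. That 1 was Sin3a, the scaffold of the Sin3 complex, at 29.5 ± 1.11 CPM with training and 33.8 ± 1.49 CPM without. Crebbp, a histone acetyltransferase, was at 47.7 ± 2.80 and 52.8 ± 4.15 CPM. In the TGF-beta and Smad list, the setting of Klf10 and Klf11, 0 of 9 passed in edgeR or DESeq2, with 2 lower at an unadjusted p under 0.05. These were the receptor genes Tgfbr1, at 59.96 ± 8.42 CPM with training and 78.5 ± 7.17 CPM without, and Tgfbr2, at 60.5 ± 8.37 and 72.9 ± 9.02 CPM.

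In the glucocorticoid response list, the setting of Klf9 and Klf15, 1 of 11 tested genes fell (Zbtb16, a transcription factor gene) and 0 rose in edgeR, and 6 of 11 lay wholly lower in trained cord. DESeq2 called 3 of them, all lower, and 6 of the list were lower and 0 higher at an unadjusted p under 0.05 in edgeR. Nr3c1, which encodes the glucocorticoid receptor, was at 81.9 ± 2.20 CPM with training and 99.2 ± 3.31 CPM without. Of 6 tested genes described as Klf15 targets, which are metabolic genes and Kcnip2, 0 passed in edgeR or DESeq2. The 1 that was higher at an unadjusted p under 0.05 was Kcnip2, not a metabolic gene. Kcnip2, a potassium channel subunit gene, was at 18.6 ± 1.20 CPM with training and 15.3 ± 1.35 CPM without, and Gpt, an aminotransferase gene, at 21.3 ± 1.73 and 18.5 ± 0.550 CPM. Of 12 immediate early genes, with which Klf2, Klf4, Klf6 and Klf10 are often induced, 2 fell (Dusp1, a MAP kinase phosphatase gene, and Btg2, an antiproliferative gene) and 1 rose (Arc, a gene of the active synapse) in edgeR. DESeq2 called 4, 3 of them lower, and 9 of the list were lower and 2 higher at an unadjusted p under 0.05 in edgeR. Both this list and the glucocorticoid one were chosen with earlier results of these data known. Without trained replicate 2 Arc did not pass, and 2 of the list did, both lower. Of 10 axon growth genes, 0 passed in edgeR or DESeq2, with 1 lower and 1 higher at an unadjusted p under 0.05. Gap43, of the growth cone, was at 159.7 ± 2.98 CPM with training and 140.5 ± 4.29 CPM without. Reads of overlapping genes cannot be told apart where strand was not used, which touches, among other genes named, Mef2a, Sp3, Mapk7, Nos3 and Sp9, whose overlapping genes held 2501, 788, 591, 1038 and 1225 counts in all.

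Across the 6 libraries, the genes whose log2 CPM was most like that of Klf4, of 12461 ranked by Pearson's r, were Nsd3 (r = 0.996), Afdn (0.995), Tns1 (0.992), Sgk1 (0.990) and Lrp6 (0.987). These 6 points share the group difference. In the deviations from the group means they were Hist1h1c (r = 0.999), Arhgap31 (0.997), Erg (0.996), Qpct (0.995) and Tns2 (0.994). Taking the group means out of 6 libraries leaves few free values, and these r are the highest of 12461. No link to Klf4 is read from them. Sgk1, a glucocorticoid-induced kinase gene, was at 67.6, 79.8 and 87.2 CPM in the trained and 245, 147 and 164 CPM in the untrained libraries, with untrained replicate 1 the highest, as for Klf4. Erg, a transcription factor gene of endothelial cells, was at 9.40 ± 0.765 CPM with training and 12.02 ± 2.22 CPM without.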

How the data were processed

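Per the labels' protocols, TRIzol-extracted spinal cord RNA was read on an Illumina NovaSeq in paired ends. The authors deposited raw read counts per Ensembl gene, not normalized, with coordinates and gene lengths. Bowtie (0.12.2) and 2 builds (mm9, mm8) are named, without roles, in the submitters' processing notes; how reads were counted, with which annotation and whether by strand, is not given in the sources used here. Of 54532 gene IDs, 54495 are in GENCODE M21 (GRCm38), and 53585 have the same span there, so the coordinates are GRCm38.

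The counts went through edgeR 4.0.16 (R 4.3.3; filterByExpr, TMM scaling, robust quasi-likelihood fit, group as the only term, Benjamini-Hochberg adjustment over 16909 genes, threshold 0.05), after a check on simulated data. CPM carry the TMM factors, and an SE is the log2 fold change divided by the square root of F. DESeq2 1.42.0, other scalings and filters, a replicate block and each library left out were alternatives. The members and lists were chosen with earlier results of these data known. All 10 members are named. From each other list the text names genes past the test, at most 3, or the 2 of smallest p, and for Klf4 the 5 most similar genes of at least 5 CPM (log2 CPM, prior count 2). Some genes this rule takes are not reported here. Marker lists are given as sums and counts. Mapk7, Nos3, Nr3c1 and the other genes named were chosen after their values were seen.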

Additional observations from a re-analysis of the deposited data

How the results depend on the processing

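Over all genes 10 passed in edgeR. The count was 276 with no filter on low counts, 86 in DESeq2, 18 at an adjusted p threshold of 0.1 and 5 with the replicate block, and it ran from 4 (without trained replicate 2) to 221 (without trained replicate 3) when 1 library was left out. Of the 10 KLF genes 1 passed, 3 with no filter, 4 in DESeq2, 0 with the replicate block, and 0 to 2 with 1 library left out (0 without trained replicate 2, 2 without trained replicate 3, where Klf6 joined Klf4). The cause was not tested. The deviations of same-numbered libraries from their group means correlated at -0.18, -0.091 and -0.13. With group means of 3 libraries, these values cannot tell whether the numbers pair the libraries. Klf4 had an adjusted p of 0.135 in edgeR with that block, and its log2 fold change ran from -1.54 to -1.11 over 14 alternatives. Klf2 ran from -1.93 to -1.42 and Klf6, Klf9, Klf13 and Klf15 stayed below 0 in all 14. Directions turned in 3 fits, each with 1 library left out: Klf7 at 0.037 and 0.043 and Klf10 at -0.0056 (up to 0.33 with 1 library left out and 0.38 with the endothelial marker mean as a covariate). With 30 to 110 reads per library, Klf5 had the fewest reads of the 10. The SE of its log2 fold change was 0.66 with all libraries and 0.22 without trained replicate 1. The part of read depth in its spread was not tested.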

Other observations

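Klf1, the erythroid KLF, was too low to be tested, with 15, 12 and 14 counts in trained replicates 1, 2 and 3 and 5, 2 and 9 in the untrained libraries, or 0.581, 0.741 and 0.869 CPM against 0.273, 0.1202 and 0.575 CPM. Red blood cell markers summed to 61.1, 145 and 143 CPM in the trained and 67.8, 65.0 and 36.6 CPM in the untrained libraries.

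Klf5 was ranked in the same way as Klf4 after its values were seen. In deviations from the group means over the 6 libraries genes among the most like it, of 12461, were Ccl9, Plekha4, Cldn19 and C1qtnf6 (Pearson's r 0.996 to 0.998). Few free values are left here too, and these r are among the highest of 12461, so no link to Klf5 is read from them. Cldn19, a junction gene of Schwann cells, was at 11.1 ± 9.53 CPM with training and 13.8 ± 3.07 CPM without.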
